A study of Mus musculus with 1920 samples.

Results

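The cytosolic ribosomal protein genes encode the protein parts of the ribosome that translates nuclear messages. They were selected by symbol from a deposited table of read counts, as the protein-coding genes named Rpl or Rps with a number and, where present, a final a, x or y, together with Rplp0, Rplp1, Rplp2 and Rpsa. Rps4x, Rps4l and the ribosomal S6 kinases were left out, as the rule sets. This gave 75 of the 55471 genes in the table, 46 of the large subunit and 29 of the small subunit, spread over 19 chromosomes with 14 of them on chromosome 7. Fau, Rps3a1 and Rack1 also belong to the cytosolic ribosome but have other symbols, and were followed as a separate list. The counts came from single small-intestinal stem cells sorted for high Lgr5 signal, from 3 young mice (Young_1 to Young_3) and 4 aged mice (Old_1 to Old_4), and the age comparison asks what differs between stem cells of young and aged intestines. Mice of both age groups carried the B6.129P2-Lgr5tm1(cre/ERT2)Cle/J allele, in which the Lgr5 locus drives EGFP and a tamoxifen-inducible Cre, so that the sort read Lgr5 promoter activity. The labels give the ages as Old or Young only. Full-length cDNA of 1920 sorted cells was sequenced, and the 1836 of them in which 1000 genes or more were detected entered the analysis, 906 from young and 930 from aged mice.

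Each ribosome carries a single copy of nearly all of these proteins, and their genes are among the most highly expressed in dividing cells. The transcripts share a cytosine followed by a run of pyrimidines at their first bases, the terminal oligopyrimidine motif, through which the mTOR pathway and the RNA-binding protein Larp1 control their translation. In the crypt, stem cells divide and make new ribosomes steadily, whereas differentiated cells such as Paneth cells and enterocytes no longer divide.

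The first 20 bases of the main transcript of each gene, as the GENCODE M21 annotation on the GRCm38 build places its start, were read to show how far the annotation reaches the oligopyrimidine start. A cytosine followed by at least 4 pyrimidines opened 10 of the 75 transcripts (13.3%) and 505 of 21897 protein-coding transcripts in all (2.3%). Many annotated starts lie some bases away from the cap site that is used in cells, so a transcript without the run in this window is not shown to lack it. The starts below are examples with the motif (Rps24, Rpl32, Rpl4 and Rpl30) and those of members that the later results turn on, with the opening pyrimidine run in capitals.
Rps24: CTCTTTTCCTCCTCTCCagc
Rpl32: CTTCCTTCTTCCTCggcgct
Rpl4: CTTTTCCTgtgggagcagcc
Rpl30: CCTTTCTCgctccccggcca
Rps25: TTTTTTTCCgacatcttagc
Rps6: gagaacttagagcgctatgt
The annotated start of Rps25 is a run of thymines and cytosines that opens with thymine, so it did not count as a motif start. Rps6 opened with a purine in this annotation.

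Promoter windows from RefSeq (GRCm38.p6), covering 250 bases before to 50 bases after a start, matched 55 of the 75 genes with 65 windows. The letters CCGGAAG, which hold the core bound by ETS family factors such as GABP, were found on either strand in 36.9% of these windows against 8.9% of all 32851 windows. CTTTCC was found in 49.2% against 26.6%, AAGATGG in 16.9% against 6.3%, and the TATA box letters TATAAA in 9.2% against 13.6%. No motif holds another of the 4 within its letters, and a match describes the sequence and not a bound site. The following windows run from 70 bases before to 20 bases after the RefSeq start on the strand of the gene, with any of the 4 motifs in capitals, for Rpl38, which holds both CCGGAAG and CTTTCC, and for members described below for their level, their difference between sets of cells or their level in Paneth-marker-led cells.
Rpl41, chr10:128549149-128549238, minus strand: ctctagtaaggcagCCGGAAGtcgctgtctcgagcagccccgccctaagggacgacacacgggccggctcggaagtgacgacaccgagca
Rpl38, chr11:114668510-114668599, plus strand: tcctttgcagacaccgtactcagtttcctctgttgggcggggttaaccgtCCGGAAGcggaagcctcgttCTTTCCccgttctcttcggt
Rpl15, chr14:18270967-18271056, minus strand: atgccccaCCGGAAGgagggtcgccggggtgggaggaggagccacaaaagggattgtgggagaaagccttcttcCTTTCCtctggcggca
Rpl4, chr9:64173317-64173406, plus strand: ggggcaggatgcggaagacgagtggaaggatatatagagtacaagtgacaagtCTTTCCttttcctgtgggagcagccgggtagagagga
Rps6, chr4:86857348-86857437, minus strand: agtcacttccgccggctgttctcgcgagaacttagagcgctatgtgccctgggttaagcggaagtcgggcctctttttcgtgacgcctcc
Rps25, chr9:44407644-44407733, plus strand: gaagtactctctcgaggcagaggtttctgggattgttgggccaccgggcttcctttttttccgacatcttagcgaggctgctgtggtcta
The genes with CCGGAAG in a window did not stand at a higher level than the others: their median was 513 TPM, a level scaled by transcript length and library total, over 23 genes, against 679 over 32 genes whose windows lacked it.

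The kept cells held a median of 305492 reads on genes, and the mice summed to between 49447464 and 134408884 reads. Codes in the cell names, each shared by 384 cells, divide the cells into sets that are called A to E here. The sources used here do not say whether a code marks a sorting plate, a library pool or a sequencing lane. Set A held Old_1 and a part of Young_2, set B held Old_2 and the rest of Young_2, set C held Old_3 and Young_1, and sets D and E held Old_4 and Young_3 alone, so that for those mice age and set cannot be told apart. Set C stood apart for several members, as described below, and results that rest on it are given with and without it. By the highest mean level of fixed marker lists, 1537 cells were led by intestinal stem cell (ISC) markers, 122 by Paneth markers and 95 by enterocyte markers, and 98.4% of the ISC-marker-led cells had reads of Lgr5. So did 92.6% of the Paneth-marker-led cells, and detection of Lgr5 hardly separates these classes. In the aged mice 12 of 14 enterocyte markers and 11 of 14 Paneth markers had fold changes above 0, with median log2 values of 1.5 and 0.43, while 16 of 20 ISC markers lay below 0 with a median of -0.25, and the part of these cells in the age comparison is measured below by using ISC-marker-led cells alone.

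All 75 members were detected, and every one passed the filter on low counts in every comparison. With the reads of each cell thinned to 100000, 40 of the 75 members were found in at least 99% of the cells of every mouse, and the lowest share for any member in any mouse was 81.5%. Levels per transcript length differed widely between genes whose proteins stand at equal numbers in the ribosome. The median member had 629 TPM, the middle 50% of members ran from 403 to 1020 TPM, 20 members had over 1000 TPM and 5 had under 100 TPM.

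Among the highest levels were those of Rps14 with 2210 TPM over all mice, Rpl4 with 2140, Rps18 with 1930, Rps19 and Rpl32 with 1690 each, Rplp0 with 1540 and Rps9 with 1490. These neighbors could not be put in order beyond their spread: Rps14 had 2230 ± 236 and Rpl4 2150 ± 390 TPM over the 7 mice. At the low end stood Rps10 with 60.0 TPM, Rpl24 with 81.1, Rpl21 with 83.4, Rps15a with 88.6, Rpl13a with 89.8, Rps20 with 110 TPM, Rpl29 with 131 and Rpl17 with 158 TPM. Their order was also within the spread, as Rps10 had 59.9 ± 13.0 TPM and Rpl24 83.3 ± 17.2.

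**Figure D1:**
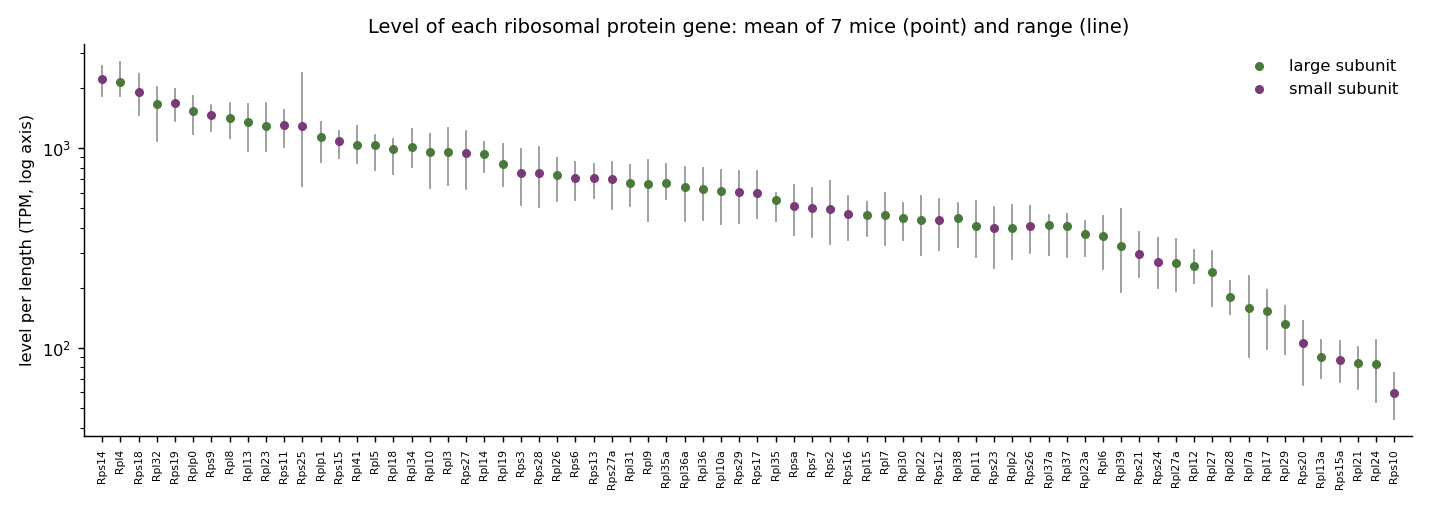
Level of the members per transcript length in TPM on a log axis, with the mean of the 7 mice as a point, their lowest to highest value as a line, and the subunit as color. Rps14 and Rpl4 stand at the high end, at 2210 and 2140 TPM, and the lowest members, such as Rps10, lie below 100 TPM.

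The low levels carry a limit of counting. Ribosomal protein genes have many processed copies in the genome, and a read that matches a copy as well may not be counted for the parent gene. By symbol, 292 annotated pseudogenes carry the name of a ribosomal protein gene followed by -ps. Copies annotated under other names are not in that number. In the main transcript of the median member, 55.5% of the 50-base windows also occurred in another gene, and in 45 of 75 members it was over 50%. Rps27 shared 98.6% of its windows and Rpl24 81.7%. Across the 75 genes the Spearman rho between the shared percentage and the TPM was -0.03, a description over genes that share the same 7 mice. As it compares different genes, it cannot show whether reads of a given gene were lost, which was not tested. Rps10 and Rpl13a overlap another protein-coding gene on the same strand, and Rps15a and Rps20 were scaled by annotated transcripts of 5130 and 3706 bases, far longer than the messages of other members. With the union of all exons as the length, the order of the members was largely kept (rho = 0.84), and Rps15a and Rps20 rose to 106 and 147 TPM.

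The members together took between 2.53% and 3.64% of the reads of a mouse. The share was 3.45% in Old_1, 3.64% in Old_2, 2.66% in Old_3 and 2.64% in Old_4, against 2.53% in Young_1, 3.45% in Young_2 and 3.02% in Young_3. High and low mice occurred in both age groups, and the groups overlapped over nearly their whole range: 3.10 ± 0.519% in aged (SD, n = 4) and 3.00 ± 0.462% in young mice (n = 3). As a sum over the members, the share was given no test, and because it is relative to the reads of a library, the amount of RNA per cell is not measured by it. Within set A it was 3.45% in Old_1 and 3.19% in Young_2, within set B 3.64% in Old_2 and 3.67% in Young_2, and within set C 2.66% in Old_3 and 2.53% in Young_1. The 2 parts of Young_2, which is a single mouse, thus differed by more between sets than the aged and young mice did within any set.

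**Figure D2:**
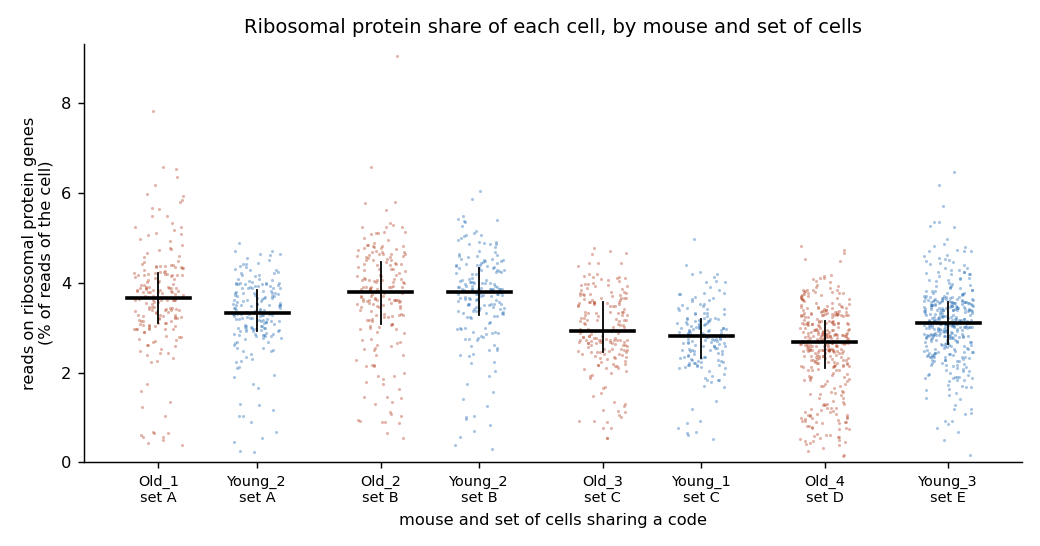
Percent of the reads of each cell on the 75 ribosomal protein genes, for each mouse within each set, with a point for each cell (red aged, blue young), the median as a thick bar and the middle 50% of cells as a thin line. The distributions of aged and young mice overlap in every set that holds both, and sets C and D sit lower than sets A and B.

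Cells within a mouse differed more from each other than the mice did. The SD of the share over the cells of a mouse ran from 0.759 percentage points in Young_1 to 1.22 in Old_2. It averaged 1.06 ± 0.170 in aged (n = 4) and 0.867 ± 0.111 in young mice (n = 3), ranges that overlapped. The interquartile range of the share over the same cells did not overlap between the ages. It was 1.11, 1.39, 1.1 and 1.06 percentage points in Old_1 to Old_4. In Young_1 to Young_3 it was 0.855, 1.02 and 0.922 percentage points. This difference in spread was seen in the data and was not tested. It was taken over all kept cells, and those led by Paneth or enterocyte markers had lower shares, as given below. ISC-marker-led cells were 169 of 189, 138 of 186, 143 of 189 and 260 of 366 kept cells in Old_1 to Old_4. They were 139 of 160, 345 of 370 and 343 of 376 in Young_1 to Young_3. The part of this mix of cells in the spread was not tested. In the ISC-marker-led cells the share was negatively related to the number of reads of a cell in every mouse, with Spearman rho from -0.54 in Old_3 to -0.02 in Old_2, and positively to the number of detected genes, with rho from 0.01 in Old_1 to 0.44 in Old_3 (descriptions over the cells of a mouse). Reads on large-subunit genes exceeded those on small-subunit genes by a ratio of 1.37 to 1.47. Reads on pseudogenes named after a ribosomal protein gene made up 0.0434% to 0.0659% of all reads, a share that leaves out copies under other names.

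The members moved together from mouse to mouse. On the log2 scale, relative to the mean of the mice, the median member stood at 0.18 in Old_1, 0.35 in Old_2, -0.20 in Old_3 and -0.15 in Old_4, and at -0.32 in Young_1, 0.12 in Young_2 and -0.01 in Young_3. The SD of a member over the 7 mice had a median of 0.26, and after the family median of each mouse was taken off it was 0.12. The spread became smaller for 66 of the 75 members. The same held between cells: in ISC-marker-led cells of a single mouse, thinned to equal depth, pairs of members correlated with a mean r of 0.26 to 0.48 (median mouse 0.38). The mean r was 0.14 in the median mouse for 77 mitochondrial ribosomal protein genes, 0.15 for ribosome biogenesis genes and 0.21 for translation factors, while the G2/M genes, which are on only in part of the cells, reached 0.73. The lists also differ in expression level, whose part in r was not tested.

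Rps25, a protein of the small subunit head (chr9:44407139-44410427, plus strand), departed furthest from the family. Its level in CPM, counts scaled by library totals that TMM had adjusted, was 456 in Old_1, 414 in Old_2, 955 in Old_3 and 246 in Old_4, and 597 in Young_1, 363 in Young_2 and 365 in Young_3. Both mice of set C stood above all others, whatever their age. Relative to the family, Rps25 was higher by 1.30 on the log2 scale in Old_3 and by 0.74 in Young_1, and its value was -0.71 in Old_4. Its log2 fold change for age was 0.23 ± 0.40 (SE), and 0.03 without set C. Over the cells of a mouse, the r of Rps25 with the rest of the family ran from -0.45 to 0.61, depending on the mouse. Its mean over the mice was 0.04, where the means of the other 74 members ranged from 0.32 for Rpl24 to 0.74 for Rpl32.

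The high level of Rps25 in set C came from a minority of cells. The median ISC-marker-led cell had 333 CPM in Old_3 and 245 CPM in Young_1, within the range of the other mice, whereas the 95th percentiles were 2650 and 1220 CPM. Over 1000 CPM were found in 22 of 143 such cells of Old_3 (15.4%, exact 95% interval 9.90% to 22.4%) and in 15 of 139 of Young_1 (10.8%, 6.17% to 17.2%), and in at most 2.62% of the cells of any other mouse in any set. The intervals cover counting error only. These cells also differed in other measures: in Old_3 they had a median of 946066 reads and 6445 detected genes, against 239869 reads and 9756 genes in the rest, and in Young_1 760935 reads and 6007 genes against 199368 and 8800.5. Rps25 overlaps Trappc4 and Ccdc84 on the opposite strand, and as SMART-seq2 does not mark strand, reads in the overlap cannot be assigned to a gene. Such an overlap is not particular to Rps25, as 15 of the 75 members, Rps25 included, overlap a protein-coding gene on the opposite strand. The part of the depth or the overlap in the level of Rps25 was not tested. Of the 75 members, 28, Rps25 included, stood above the family in both of these mice and 27 below it in both. The count was not made for other pairs of mice or over all genes, so it cannot show whether such agreement is particular to set C. Rpl35 was at 0.39 in Old_3 and 0.36 in Young_1, Rpl5 at 0.28 and 0.45, and Rpl21 at 0.43 and 0.24. Below the family lay Rpl7a (-0.42 and -0.33) and Rpl39 (-0.35 and -0.33).

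**Figure D3:**
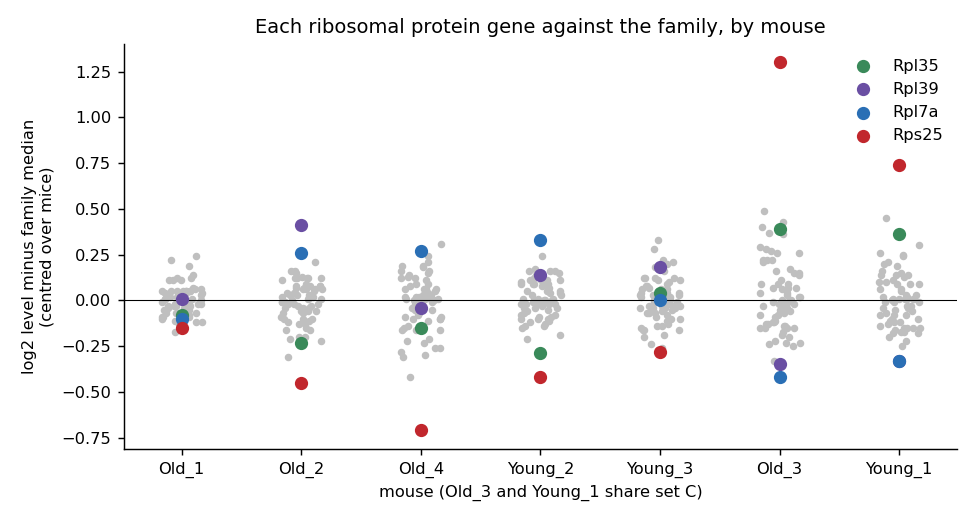
Log2 level of the members relative to the median member in the same mouse, centered over the 7 mice, with 4 members in color and the others shown in gray. Rps25 lies at 1.30 in Old_3 and 0.74 in Young_1, the mice of set C, where the Rpl7a and Rpl39 points fall together in Young_1 at -0.33.

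No member passed the test between aged and young mice. The edgeR quasi-likelihood test on the counts summed per mouse called 0 of the 75 members at an adjusted p under 0.05, as it called 0.0% of the 20957 genes tested, and 0 members had an unadjusted p under 0.05 against 5.24% of all genes. DESeq2 called 0 members and 0.845% of all genes, and limma voom called 0 members and 2 genes in all. There was no member whose aged mice all lay on one side of its young mice (0 of 75, against 5.62% of all genes). The fold changes leaned to higher values in aged mice, with 73 of 75 above 0 against 51.7% of all genes and a median of 0.12 on the log2 scale against 0.01. The standard errors of single members ran from 0.15 to 0.40, so the 95% interval of each held 0, and since the members move together the 73 are not independent.

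This lean rested on single mice. Without Young_1 the median was -0.01 and 35 of 75 members were above 0, and without Old_2 it was 0.01 with 41 above 0. Without set C, an alternative chosen after seeing the data, the median was 0.06 with 67 above 0. In ISC-marker-led cells alone 73 of 75 were above 0 with a median of 0.17, so the lean was as large without the cells led by other markers. Within sets, 72 of 75 members were higher in Old_1 than in Young_2 in set A (median log2 ratio 0.22), 65 were higher in Old_3 than in Young_1 in set C (0.12), and 63 were higher in Old_2 than in Young_2 in set B (0.076), where the median over all genes was within 0.02 of 0. Between sets B and A, 71 of 75 members differed in the same direction within the single mouse Young_2 (0.31), which was larger than any of the 3 differences between ages.

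Among single members, Rpl29, a large-subunit protein, had the lowest p. It stood at 72.4, 75.0, 61.9 and 51.9 CPM in Old_1 to Old_4 and at 43.9, 65.5 and 49.9 CPM in Young_1 to Young_3. Old_4 lay among the young mice and Young_2 among the aged ones, and the log2 fold change was 0.30 ± 0.20 (SE, p = 0.161, adjusted p = 1.0, edgeR). Rplp1, an acidic protein of the stalk that recruits elongation factors, followed with 394 ± 51.2 CPM in aged (SD, n = 4) and 330 ± 51.1 in young mice (n = 3), and a log2 fold change of 0.26 ± 0.17 (adjusted p = 1.0, edgeR). Next to these stood Rps15, Rplp0, Rpl12, Rpl15, Rpl26, Rpl8 and Rpsa, with log2 fold changes of 0.18 to 0.21 and adjusted p of 1.0. The lowest fold change was that of Rpl23, which had 894, 964, 718 and 800 CPM in the aged mice and 799, 892 and 1090 CPM in the young mice, with a log2 value of -0.14 ± 0.17. Only Rpl23 and Rpl5 had values below 0.

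**Figure D4:**
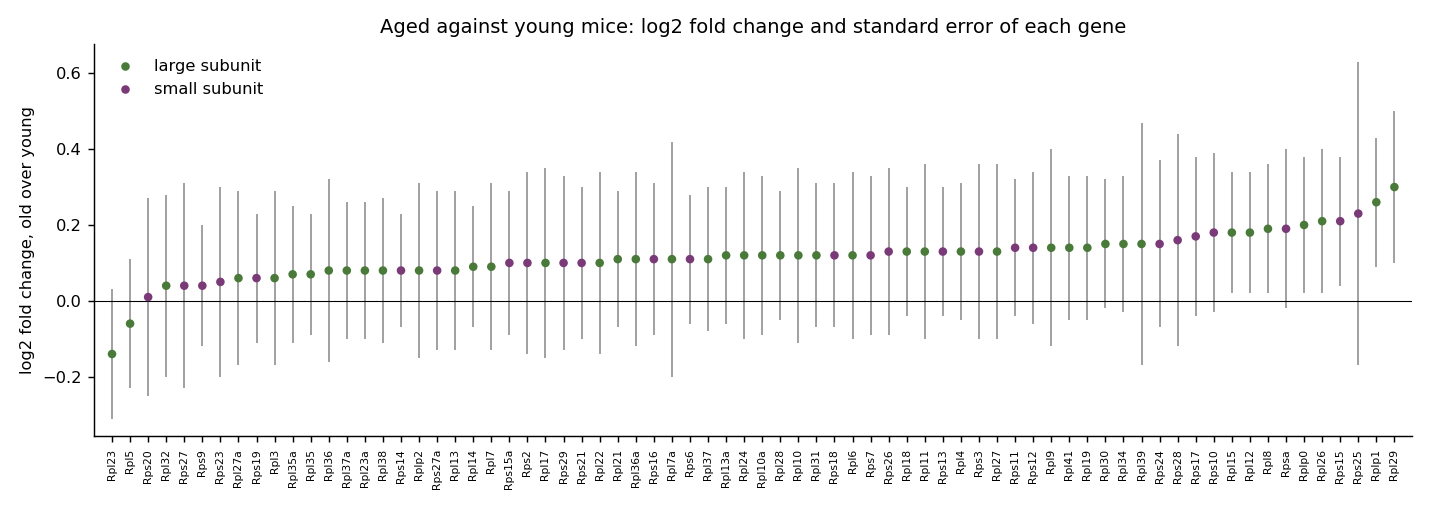
Log2 fold change of the members in aged over young mice, with its standard error as a bar, ordered by value and colored by subunit. The points run from -0.14 for Rpl23 to 0.30 for Rpl29, and none of the 75 members passed the test.

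Grouped by role, the values lay close together. The 4 stalk proteins (Rplp0, Rplp1, Rplp2 and Rpl12) had a median log2 fold change of 0.19, the 9 proteins at the peptide exit tunnel and its rim 0.12, the 14 proteins of the small subunit head 0.13, and Rpl5 and Rpl11, which join the ribosome with the 5S RNA and hold Mdm2 when they are free, 0.04. Of 12 members whose human counterparts are mutated in Diamond-Blackfan anaemia, 11 were above 0 with a median of 0.13. Large and small subunits each had a median of 0.12. With the set as a block, 4 members had an unadjusted p under 0.05, against 4.03% of all genes in that direction: Rplp1 (0.24), Rps25 (0.39), Rpl37 (0.29) and Rpl26 (0.24), with adjusted p from 0.586 to 0.656 by the edgeR quasi-likelihood test. Young_2 entered this fit as a separate library for each of its sets, so these p-values treat parts of a single mouse as replicates. Sets D and E hold a single age each and add nothing to this contrast.

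The members took a smaller share of reads in cells led by Paneth or enterocyte markers than in those led by ISC markers. The median cell gave them 3.30% of its reads among ISC-marker-led cells (n = 1537), 2.82% in goblet-marker-led cells (n = 55), 2.10% in tuft-marker-led cells (n = 18), 1.59% in enterocyte-marker-led cells (n = 95) and 1.10% in Paneth-marker-led cells (n = 122). In every mouse the summed share of Paneth-marker-led cells (0.894% to 2.12%) was below that of the ISC-marker-led cells of any mouse (2.65% to 3.98%). A share of reads also falls when other transcripts take more of the library. In Paneth-marker-led cells the Paneth markers and defensins alone took 36.7% of all reads, and 30.1% to 53.4% in single mice, against 0.101% in ISC-marker-led cells. In enterocyte-marker-led cells mitochondrially encoded genes took 12.7% of reads against 7.5%.

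Scaled by TMM, which sets the bulk of genes equal, the difference in Paneth-marker-led cells was small but went the same way for most members. Over 7 mice, with the mouse as a block, 13 of 75 members were lower and 0 higher in Paneth-marker-led than in ISC-marker-led cells at an adjusted p under 0.05, while 7.27% of the 16599 genes tested were lower and 15.2% were called in all (edgeR quasi-likelihood test). The median member had a log2 fold change of -0.25 against -0.12 over all genes, and 69 of 75 were below 0 against 58.3% of all genes. A total of 29 members were lower in each of the 7 mice, a count that was not made over all genes. With library totals in place of TMM the median was -1.40 against -1.25 over all genes, and all 75 members were called lower against 69.2% of all genes, so that the median over all genes fell by nearly as much as that of the members.

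Rps6, the small-subunit protein phosphorylated by the S6 kinases, had the lowest fold change of the 13. It ran from 164 to 259 CPM in Paneth-marker-led cells (median 195) and from 241 to 340 CPM in ISC-marker-led cells (median 290) of the 7 mice. The ranges overlapped between 241 and 259 CPM, but within each mouse the Paneth-marker-led cells were lower, and the log2 fold change was -0.54 ± 0.12 (SE, adjusted p = 0.005312). Rps25 fell by 0.52, Rpl15 and Rpl3 by 0.51 each, Rps9 by 0.50 and Rpl7 by 0.47 on the log2 scale. Rpl3 helps shape the peptidyl transferase center and Rps9 lies at the entry of the mRNA channel. Rpl27a fell by 0.40, Rps7 and Rpl4 by 0.39 each, Rpl14 and Rps19 by 0.37 each, and Rpl37 by 0.35, the last at the edge of the threshold (adjusted p = 0.04996). The 13 held 7 large-subunit and 6 small-subunit proteins, with 0 of the 4 stalk proteins, 1 of 9 exit tunnel proteins (Rpl4) and 3 of 14 head proteins.

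Rpl41, the shortest member with a coding sequence of 75 bases, went the other way. It ran from 231 to 417 CPM in Paneth-marker-led cells (median 290) and from 200 to 316 CPM in ISC-marker-led cells (median 243). It was higher in 7 of 7 mice and was the only member of which that was true, with a log2 fold change of 0.27 ± 0.11 that did not pass the edgeR test (adjusted p = 0.1083) and passed by DESeq2 (0.35, adjusted p = 0.0033). More broadly, the fold changes of the members were ordered by coding length (Spearman rho = -0.57 over 75 genes, a description): the 9 members with under 300 bases had a median of 0.01 and the other 66 a median of -0.27. Over 12318 genes the same rho was 0.14, and over the 1968 highly expressed ones 0.11. Short genes stood higher among the highly expressed genes as well, where the 74 with under 300 bases had a median of -0.00 and the longer ones a median of -0.19. The short members other than Rpl41 and Rpl37 were Rps28 at 0.11, Rps27 at 0.03, Rps21 and Rps29 at 0.01 each, Rpl38 at -0.01, Rpl39 at -0.12 and Rpl37a at -0.20, none of them called.

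**Figure D5:**
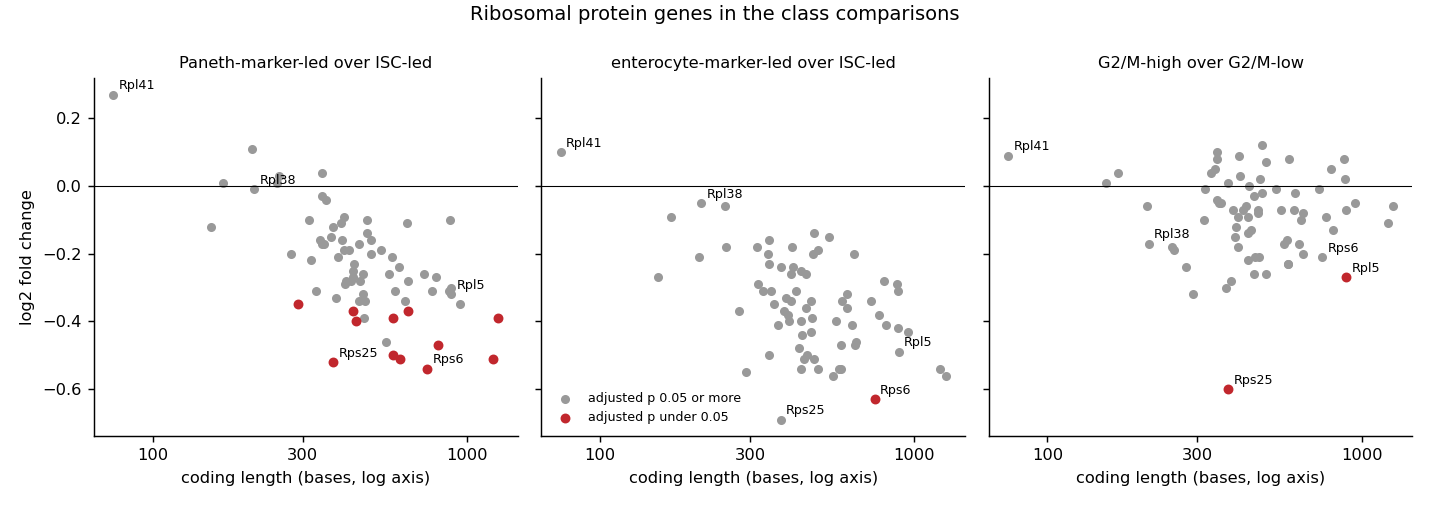
Log2 fold change of the members in Paneth-marker-led and enterocyte-marker-led cells over ISC-marker-led cells, and in ISC-marker-led cells high over low in G2/M genes, against coding length in bases on a log axis, with members at an adjusted p under 0.05 in red. Most points lie below 0 in the first 2 comparisons, with medians of -0.25 and -0.35, and closer to 0 in the third, with a median of -0.07.

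The number of members called in Paneth-marker-led cells changed with the mice and the fit. DESeq2 called 10 of the 13 lower (7.88% of all genes were lower by it) and Rpl41 higher, and with reads thinned to equal depth 21 members were lower (7.78% of all genes), among them 12 of the 13. Leaving out Old_4 or Young_3 left 5 members called, and leaving out Young_1 or Young_2 left 6, while the median stayed between -0.19 and -0.29 over the 7 fits. Of all genes, 693 of 16558 were lower without Old_4 and 864 of 16579 without Young_3. Without Young_1 826 of 16904 genes were lower, and without Young_2 908 of 16532. Without set C 5 members were called (3.73% of all genes were lower), with a median of -0.29, and Rps25 was not among them (adjusted p = 0.0798).

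In enterocyte-marker-led cells the median of the members was lower than in Paneth-marker-led cells, but so was the median over all genes. The shift was less even between mice. With 5 mice that had at least 5 enterocyte-marker-led cells, 74 of 75 members had fold changes below 0 against 61.9% of all genes, with a median of -0.35 against -0.23. In each mouse 22 members were lower, a count that was not made over all genes. The edgeR test called 1 member lower and 0 higher, against 7.8% of the 16756 genes tested for lower and 17.6% in all, and 19 members had an unadjusted p under 0.05 and a value below 0 against 18.3% of all genes. The called member was again Rps6, which ran from 196 to 268 CPM (median 258) against 320 to 457 CPM (median 389) in ISC-marker-led cells. The 5 mice did not overlap between the classes, and the log2 fold change was -0.63 ± 0.19 (adjusted p = 0.03763). Rps25 had a lower value (-0.69), but its log2 ratio ran from -1.69 in Old_3 to 1.08 in Young_3 and it was not called. Rps6 was called in both comparisons, which share their ISC-marker-led cells.

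The mice divided by set here. The median log2 ratio of the members was -0.55 in Old_2, -0.58 in Old_4 and -0.64 in Young_3, but -0.07 in Old_3 and 0.18 in Young_1, the mice of set C, which had 16 and 5 such cells. In these cells enterocyte markers took 1.53% of reads in Old_3 and 1.91% in Young_1, against 2.56%, 3.09% and 2.16% in Old_2, Old_4 and Young_3. ISC markers took 1.24% in Old_3 and 0.973% in Young_1, against 0.657%, 0.533% and 0.59% in Old_2, Old_4 and Young_3. The part of these differences in the ratios was not tested. Without set C the median was -0.65 and 9 members were called lower, against 3.83% of all genes. DESeq2 called 4 members, Rps6, Rpl37, Rps9 and Rpl12, lower against 10.8% of all genes, and thinned reads gave 21 members against 10.6%. Leaving out Old_2, Old_4 or Young_1 left 0 members called, where 572 of 16754, 442 of 16627 and 642 of 17294 genes were lower. Leaving out Young_3 gave 3 members, where 1867 of 16873 genes were lower. Again the longer members fell more (rho = -0.42 with coding length, against -0.10 over all genes), with medians of -0.18 in the 9 short and -0.37 in the 66 longer members. Highly expressed genes had a rho of -0.16 and a wider gap by length than the members, with a median of 0.51 in the 74 short genes and 0.01 in the longer ones.

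Within the ISC-marker-led cells, the 25% of cells highest in G2/M genes were compared with the 25% lowest in each mouse, 387 cells against 387, to see whether the members follow the cell cycle. The score is continuous, and 125 cells lay within 0.1 of a limit. The members took 3.12% of reads in the high and 3.19% in the low cells. By the edgeR quasi-likelihood test 3 members were lower and 0 higher, against 6.5% of the 15181 genes tested for lower and 14.8% in all, and the median was -0.07 against -0.01 over all genes, with 57 of 75 below 0 against 51.1%.

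Rps25 and Rpl5 were among the 3. Rps25 ran from 220 to 552 CPM in the high cells (median 337) and from 268 to 967 CPM in the low cells (median 577), overlapping ranges with a log2 fold change of -0.60 ± 0.16 (adjusted p = 0.02467). By mouse its log2 ratio was between -1.40 in Old_3 and 0.01 in Young_2. The high cells had a median of 9917 detected genes and the low cells 8310. Cells over 1000 CPM of Rps25 also had fewer detected genes in every mouse, as in Old_1 (median 5103.5 against 8740) and Young_3 (5194 against 8988). The part of this imbalance in the fold change was not tested. Rpl5 fell by 0.27 (adjusted p = 0.03714). Without set C, where 4.61% of all genes were lower, Rps25 and Rpl5 were still called, at -0.54 (adjusted p = 0.0429) and -0.34 (adjusted p = 0.0293). Without Old_1 or Old_2 0 members were called, where 836 of 16029 and 630 of 16097 genes were lower. Without Old_3 or Old_4 1 member was called, where 830 of 16092 and 697 of 14964 genes were lower.

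The median log2 ratio of the members between high and low cells was -0.23 in Old_1, -0.23 in Old_2, -0.30 in Old_3 and -0.13 in Old_4, and 0.13 in Young_1, -0.06 in Young_2 and 0.17 in Young_3. All 4 aged mice lay below all 3 young mice, a pattern seen in the data whose difference was not tested. In Old_4 66 of 75 members were lower in the high cells, and in Young_3 7 were.

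Of the other genes of the translation machinery, those of ribosome biogenesis had lower medians than the members in both classes, while the translation factors had medians close to those of the members. These differences between lists were not tested. In Paneth-marker-led cells 16 of 50 ribosome biogenesis genes were lower and 0 higher, with a median of -0.43, and in enterocyte-marker-led cells 22 of 50 were lower and 0 higher, with a median of -0.77. Of all genes, 7.27% were lower in Paneth-marker-led and 7.8% in enterocyte-marker-led cells. Among them were Fbl, which methylates ribosomal RNA (-0.87 and -1.08), and Nop56, a core protein of the same particle (-0.71 and -1.16). Myc, a transcription factor that drives genes of ribosome synthesis, fell by 0.79 (adjusted p = 0.000487) and by 1.24 on the log2 scale (adjusted p = 0.000449). Larp1, which binds the oligopyrimidine start, was higher in Paneth-marker-led cells by 0.87 (adjusted p = 0.00761).

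Of the 78 mitochondrial ribosomal protein genes, 17 were lower and 0 higher in Paneth-marker-led cells (median -0.36), 2 were lower and 1 higher in enterocyte-marker-led cells (median -0.14), and in G2/M-high cells 7 of 77 were higher and 0 lower (median 0.21), a share of calls near that of all genes, of which 8.3% were higher. Of the 37 translation factors 8 were lower and 2 higher in Paneth-marker-led cells (median -0.24), 2 lower and 0 higher in enterocyte-marker-led cells (-0.40), and 4 lower and 2 higher in G2/M-high cells (0.01). Of all genes, 7.27%, 7.8% and 6.5% were lower in these comparisons, and 15.2%, 17.6% and 14.8% were called in all. In enterocyte-marker-led cells both lists had a smaller share of calls than all genes. The translation factors were called at a share near that of all genes in G2/M-high cells. In G2/M-high cells the elongation factors Eef1a1 and Eef2 fell by 0.30 and 0.36 (adjusted p = 0.00289 and 0.00446, edgeR). The initiation factor Eif4e rose by 1.01 (adjusted p = 0.00117, edgeR). Of the other elongation factors, Eef1b2 stood at -0.12, Eef1g at 0.08, Eef1d at 0.12 and Eef1e1 at 0.32, and none of these was called.

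Among the ribosomal proteins and partners outside the symbol rule, 10 of 13 passed the filter. Rps3a1 (-0.46) and Rack1 (-0.38), both small-subunit proteins, fell in Paneth-marker-led cells, where Rps27l, a relative of Rps27, rose by 0.43. In enterocyte-marker-led cells Rack1 fell by 0.62 and Fau, which encodes a ubiquitin-like protein fused to a small-subunit protein, rose by 0.63 (adjusted p = 0.0373). In the aged mice none of these lists had a called gene. Their median log2 fold changes were 0.16 for the mitochondrial ribosomal proteins, 0.05 for biogenesis, 0.06 for translation factors, 0.10 for the proteins outside the rule and -0.06 for 14 regulators such as Mtor and Tsc1, and 63 of 78, 30 of 50, 24 of 37, 10 of 10 and 6 of 14 genes were above 0. Unadjusted p under 0.05 by edgeR was found for 1 of these genes, Mrps5 (0.41 ± 0.15), against 5.24% of all genes.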

How the data were processed

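Single Lgr5high cells of 3 young and 4 aged mice were profiled by SMART-seq2 with single-end reads and no molecular identifiers. The authors mapped reads to GRCm38 with HISAT2 and, per the submitters' processing notes, used HTSeq; the deposited table holds raw read counts per Ensembl gene and cell, and no source used here states the versions or strand setting. Symbols were taken from GENCODE M21; 241 IDs without a match held 0.00278% of counts. Cells with at least 1000 detected genes were summed per mouse. The members and lists were chosen with earlier results of these data known.

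R 4.3.3 was used with edgeR 4.0.16 for the main test of age (quasi-likelihood fit after TMM scaling and filterByExpr, Benjamini-Hochberg adjustment over all genes, calls at 0.05); voom of limma 3.58.1 and DESeq2 1.42.0 served as alternatives. Cells were classed by the highest mean log2(CPM + 1) over fixed marker lists, none holding a member, and classes were compared with the mouse as a block where a mouse had at least 5 cells in both. G2/M groups were the upper and lower 25% of a score. TPM used the main transcript's length. No doublet caller was run. Depth was 49447464 to 134408884 reads per mouse and 1695 reads in the shallowest cell. The fits were tested on simulated data. Other alternatives changed scaling, filters, cells, depth, blocks and mice. Named genes were the 8 highest and 8 lowest by TPM, the 10 lowest p for age, all called members, the 6 highest and 6 lowest called fold changes per class comparison, the stalk, 5S and exit tunnel groups, Rps6, Rps27a, Rpsa, Rpl10, Rpl38, Rpl41, Rps14, Rps19 and Rpl22, and the 3 lowest p of each other list; Rpl23, Rpl35, Rpl21, Rpl39, Rpl7a, Rps27, Rps28, Rps21, Rps29, Rpl37a and the non-member genes outside that rule were named after their values were seen. Mice of a group are separate animals per the labels. A few members are not reported by name here and are left out of the plots by gene, which show 72 members; they stay in every fit, count and median.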

Additional observations from a re-analysis of the deposited data

Results flagged for a closer look

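Of 56 sets of values per mouse tested for a single mouse far from the rest, 1 stood out, and chance gives about 1 in 20. The log2 ratio of Rpl7 in Paneth-marker-led over ISC-marker-led cells was -0.68 in Young_3, while the other 6 mice lay between -0.47 and -0.40, so that the gap was 0.732 of the whole range against a limit of 0.568 for 7 mice. Young_3 had 7 Paneth-marker-led cells, the fewest of any mouse, and the median log2 ratio of all members was also lowest there (-0.57); their part in the value was not tested.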

How the results depend on the processing

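In the age comparison 0 members were called under every alternative run, and the share of reads differed between ages by -0.14 to 0.32 percentage points when single mice were left out. Log2 fold changes for age that changed sign were those of Rpl5 with a replicate block (0.05) and with a block for these sets (0.09), of Rpl22 without set C (-0.01), and, over the fits that left out 1 mouse, of Rps19 (-0.03 to 0.14), Rplp2 (-0.09 to 0.23), Rpl11 (-0.03 to 0.33), Rps27a (-0.05 to 0.20), Rpl38 (-0.03 to 0.21), Rpl22 (-0.08 to 0.28), Rps25 (-0.24 to 0.51), Rpl5 (-0.12 to 0.04) and Rpl10 (-0.05 to 0.27). Old and Young mice of the same number did not deviate together (correlations -0.0159, 0.107 and -0.11), so the numbers were not taken as pairs; with the replicate block 74 of 75 members were above 0 with a median of 0.18 and 0 were called.

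Members called in Paneth-marker-led cells numbered 75 with library totals alone (median -1.40), 29 without a filter, 21 with thinned reads, 3 with no replicate block, 5 without set C and 5 to 12 when 1 mouse was left out. Over all genes, those called lower numbered, in this order, 11480 of 16599, 1717 of 34246 and 1083 of 13919. Next came 922 of 16599, 638 of 17110 and 693 to 1079 genes. In enterocyte-marker-led cells the members called numbered 4 by DESeq2, 33 with library totals alone, 3 without a filter, 21 with thinned reads, 2 with no replicate block, 9 without set C and 0 to 3 when 1 mouse was left out. The genes called lower in all numbered, in this order, 1807 of 16756, 3206 of 16756 and 1435 of 33269. Then came 1542 of 14509, 1140 of 16756, 675 of 17623 and 442 to 1867 genes. In G2/M-high cells the members called numbered 1 with library totals alone, 13 with thinned reads, 0 with no replicate block and 0 to 3 when 1 mouse was left out. Of all genes, 774 of 15181, 1734 of 12491, 769 of 15181 and 630 to 857 were called lower, in this order. Signs changed in Paneth-marker-led cells for Rplp2 by DESeq2 (0.05), for Rpl38 by DESeq2 (0.07), with no replicate block (0.02) and without set C (0.05), for Rpl41 with library totals alone (-0.89), and with 1 mouse left out for Rpl38 (-0.04 to 0.05) and Rplp2 (-0.08 to 0.01). In enterocyte-marker-led cells Rpl41 changed sign with library totals alone (-0.18), thinned reads (-0.19), without set C (-0.20) and with 1 mouse left out (-0.12 to 0.20). Apart from the filter and left-out mice or sets, which change the genes or samples tested, the cause was not tested. Of 962 values of named genes under alternatives, 838 kept their direction and their side of the threshold. With few cells in a class, as with the 5 enterocyte-marker-led cells of Young_1, the spread between mice limits what can be called.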
